A study of Bos taurus with 2 samples.

Results

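The miRNAs described here are those best known from blood cells, and they comprise 7 entries from 6 pre-miRNAs in the table of known bovine miRNAs. They were chosen by name, as all listed arms of mir-142, mir-150, mir-223, mir-451, mir-144 and mir-486, out of 298 known entries, 283 unique known miRNAs and 884 unique miRNAs in all. The rule that chose them uses names and no measured value, though it was written with earlier results of these data known. Small RNA libraries were made from mammary gland (MG) tissue of 1 multiparous dairy cow that was 6 years old and had been lactating for 2 months, and of 1 multiparous cow that was 4 years old, non-lactating and non-pregnant. Each condition is therefore 1 animal and 1 library, so condition, animal and age cannot be told apart, and no difference below has a replicate check. The paper also ran a microarray on RNA pooled within each stage, with further cows added, but its signals were not used here. For each miRNA the tables count its commonest sequence (called the most abundant sequence below), all reads summed over its isomiRs (its variants in length or sequence) and the number of isomiR kinds. Levels are given as RPM, reads per 1000000 clean reads of the library. Wherever values are paired, lactation comes first, and a ratio is the lactation value over the non-lactation value.

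MiRNAs are cut from hairpin precursors, and their seed, bases 2 to 8, does most of the pairing with target mRNAs. Blood cells have characteristic ones. Mir-142 is found throughout the blood lineages and is abundant in white cells, mir-150 in mature lymphocytes and mir-223 in granulocytes and monocytes. Mir-451 and mir-144 come from 1 erythroid transcript and accumulate as red cells mature. Mir-451 is cut by Argonaute 2 without Dicer. Mir-486 lies in the gene for ankyrin 1, a protein of the red cell membrane skeleton, and is also expressed in muscle. Mammary tissue contains blood in its vessels as well as resident and migrating white cells, and either can contribute such miRNAs to a sample of the whole tissue.

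The most abundant sequences of the 4 white cell miRNAs are shown first, 5′ to 3′ with the seed in capitals, because 1 of them starts at another base than its array form.

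mir-142-5p: cCCAUAAAguagaaagcacua
mir-142-3p: gUAGUGUUuccuacuuuaugga
mir-150-5p: uCUCCCAAcccuuguaccagug
mir-223-3p: uGUCAGUUugucaaauaccccaa

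The erythroid miRNAs had the following most abundant sequences.

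mir-451-5p: aAACCGUUaccauuacugaguuu
mir-144-3p: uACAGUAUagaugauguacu
mir-486-5p: uCCUGUACugagcugccccga

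No seed was shared between the 7 sequences or with any other of the 283 known miRNAs. Lengths ran from 20 nt for mir-144-3p to 23 nt for mir-223-3p and mir-451-5p. GC content ran from 30% in mir-144-3p to 61.9% in mir-486-5p, with no separation of white cell from erythroid members. All 6 pre-miRNAs were listed on the minus strand of the bovine assembly BTA 4.0. Mir-142 was placed at chr19:8516953-8517039, mir-150 at chr18:55905298-55905397 and mir-223 at chrX:56723506-56723613. Mir-486 was placed at chr27:38990844-38990967. Mir-451 (chr19:20147873-20147943) and mir-144 (chr19:20148035-20148118) were separated by 91 bases. In the RefSeq annotation of a later assembly (ARS-UCD2.0), all 6 were found on the same chromosomes with the same pre-miRNA lengths. There mir-142 lies within the bounds of TSPOAP1, mir-223 within those of VSIG4 and mir-486 within those of ANK1, whereas mir-451 and mir-144 lie side by side between ERAL1 and FLOT2. Exons and introns were not told apart by that table.

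The listed start of mir-142-5p sets its seed. The study's array carried probes for the bovine miRBase forms of mir-142, mir-150, mir-223, mir-451 and mir-486, and their target sequences gave a comparison.

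array form of mir-142: cAUAAAGUagaaagcacuac
listed mir-142-5p: cCCAUAAAguagaaagcacua

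The array form begins at base 3 of the listed sequence, so the listed form carries 2 further bases at its 5′ end and a different seed. No known miRNA of the table carried the seed of the array form. The array forms of mir-150, mir-223, mir-451 and mir-486 began at base 1 of the listed sequences and differed from them by at most 1 base at the 3′ end. For mir-142-3p and mir-144-3p there was no array form, so whether their listed starts are the usual ones was not examined. How many of the isomiR reads of mir-142-5p belong to the array form was not analysed here.

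Both arms of mir-142 were lower in the lactation library, and mir-451-5p and mir-486-5p were higher. The ratios of the other white cell members, mir-150-5p and mir-223-3p, were below 1 without passing the test. Mir-142-5p led in the non-lactation library and mir-451-5p in the lactation library. By the most abundant sequence, the 7 members together were nearly level, with 156 and 149 RPM, from 1861 and 2372 reads. They made up 0.0330% and 0.0310% of the 5634330 and 7655402 reads of the most abundant sequences of known miRNAs. Over all isomiRs the members had 415 and 446 RPM, or 0.0494% of such reads of known miRNAs in either library. Intervals in parentheses are exact 95% intervals throughout (Poisson for RPM, binomial or conditional for shares and ratios). They cover counting error only and no variation between animals or libraries. PCR copies are not independent molecules, so the intervals may be too narrow even for counting error. Fisher's exact test (two-sided, Bonferroni over 883 miRNAs) was applied to the reads, and it compares these libraries, not the conditions. Of the 883, 17.4% passed it as higher in the lactation library and 10.9% as lower.

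Mir-142, which marks blood-derived cells at large, was lower in the lactation library in both arms. Mir-142-5p had 423 and 1128 reads, or 35.4 RPM (32.1 to 38.9) and 70.6 RPM (66.6 to 74.9). The libraries did not overlap in these intervals, the ratio was 0.5005 (0.446 to 0.560) and Fisher's exact test gave an adjusted p of 6.6e-34. Mir-142-3p had 161 and 416 reads, or 13.5 RPM (11.5 to 15.7) and 26.1 RPM (23.6 to 28.7). Its ratio was 0.517 (0.428 to 0.621), with an adjusted p of 1.4e-10 by Fisher's exact test. The 5p arm held 72.4% (68.6% to 76.0%) and 73.1% (70.8% to 75.3%) of the reads of both arms, and the reads of the 5p arm per read of the 3p arm gave a ratio of 0.969 (0.779 to 1.21). Over all isomiRs this ratio was 1.19 (1.03 to 1.37), with an interval above 1.

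The lymphocyte miRNA mir-150-5p, known to restrain the transcription factor MYB, stood apart from mir-142. It had 167 and 242 reads, or 13.96 RPM (11.9 to 16.2) and 15.2 RPM (13.3 to 17.2). Its ratio was 0.921 (0.752 to 1.13), the intervals overlapped and the test was not passed (Fisher's exact test, adjusted p = 1). With all isomiR reads the ratio was 0.770 (0.674 to 0.879), which passed the same test over the 283 known miRNAs (adjusted p = 0.022). Read against each other within a library, mir-142-5p had 2.53 and 4.66 reads for each read of mir-150-5p, a ratio of 0.543 (0.431 to 0.687).

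The myeloid miRNA mir-223-3p was the least abundant white cell member, and its depth limited what could be said. It had 24 and 67 reads, or 2.01 RPM (1.29 to 2.98) and 4.20 RPM (3.25 to 5.33). Its ratio of 0.478 (0.287 to 0.772) had nearly the size of those of mir-142, but the adjusted p was 1 (Fisher's exact test with Bonferroni adjustment). With 122 and 263 isomiR reads the ratio was 0.619 (0.495 to 0.770) and the adjusted p over the 283 known miRNAs was 0.0025. Benjamini-Hochberg adjustment (p = 0.0041 in Fisher's exact test) and 3 other scalings also passed it. The reads of mir-142-5p per read of mir-223-3p were 17.6 and 16.8, a ratio of 1.05 (0.638 to 1.77), so no difference between the pair was detectable at this depth.

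**Figure D1:**
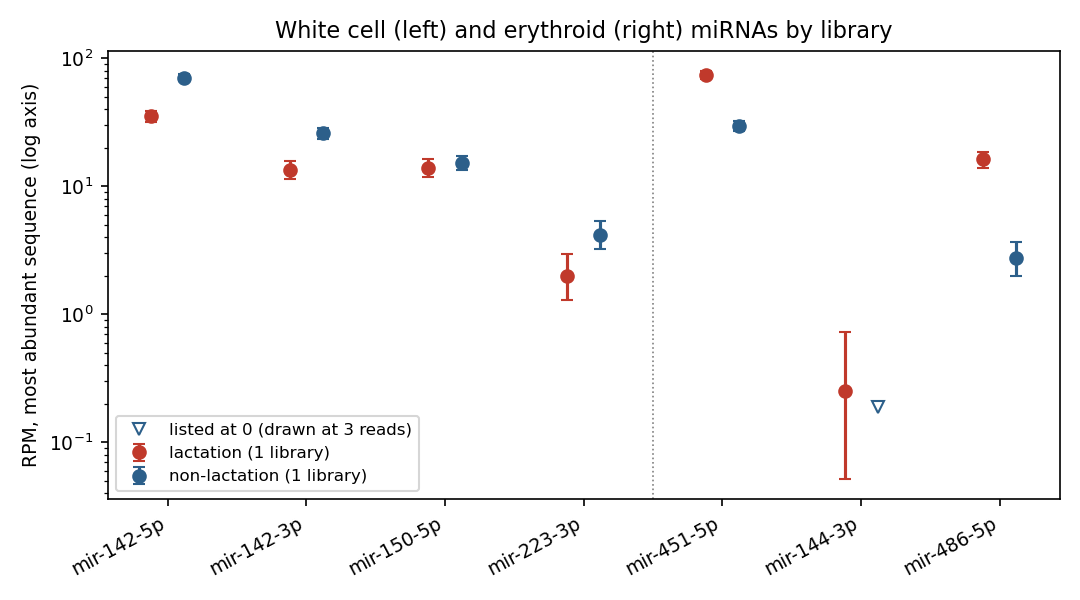
RPM of the most abundant sequence (y axis, log scale) of each of the 7 members (x axis) in the lactation (red) and non-lactation (blue) library, with exact Poisson 95% intervals and white cell members left of the dotted line. The red points lie below the blue ones for the white cell members and above them for mir-451-5p and mir-486-5p, the intervals overlap for mir-150-5p, and mir-144-3p, listed at 0 in the non-lactation library, is drawn there at 3 reads.

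Mir-451-5p, the most abundant miRNA of mature red cells, was higher in the lactation library. It had 889 and 475 reads, or 74.3 RPM (69.5 to 79.3) and 29.7 RPM (27.1 to 32.5). The intervals did not overlap, the ratio was 2.50 (2.23 to 2.80) and the adjusted p by Fisher's exact test was 7.2e-59. Among the 188 known miRNAs with at least 100 summed reads, 35 had a higher ratio.

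Mir-486-5p, the miRNA in ANK1, showed the greatest difference among the members. It had 194 and 44 reads, or 16.2 RPM (14.01 to 18.7) and 2.76 RPM (2.00 to 3.70). The ratio was 5.88 (4.22 to 8.36), with an adjusted p of 2.1e-31 by Fisher's exact test, and 11 of the same 188 miRNAs had a higher ratio. With all isomiR reads (647 and 239) the ratio was 3.61 (3.11 to 4.21). Within a library, mir-451-5p had 4.58 and 10.8 reads per read of mir-486-5p, a ratio of 0.424 (0.293 to 0.604). Counted over all isomiRs, that ratio was nearer to 1, at 0.794 (0.666 to 0.945).

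Because mir-486 is also a muscle miRNA, the miRNAs of striated muscle are given beside it. Of 5 such miRNAs, 3 passed the test as higher in the lactation library, none as lower, and none was listed at 0. Of the 283 known miRNAs tested alone, 30.0% passed as higher and 22.6% as lower. Mir-1-3p, the dominant muscle miRNA, had 4393 and 691 RPM, a ratio of 6.35 (6.22 to 6.49), and mir-133a-3p had 85.8 and 4.26 RPM. The summed level of the 5 was 4494 and 702 RPM. Their part in the ratio of mir-486-5p was not tested.

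Mir-144-3p, whose hairpin lies 91 bases from that of mir-451, was at the limit of detection. Its listed form had 3 and 0 reads, and since a count of 0 allows up to 3 reads, no fold is given for it. All its isomiRs held 8 reads of 2 kinds and 0 reads. With 3 reads set for the 0, this was 3.56-fold higher by RPM in the lactation library. The exact interval and the test took the 0 as listed. From that 0 the interval began at 2.28 and had no upper limit, and the test was not passed (Fisher's exact test, adjusted p = 0.32). For 8 against 3 reads the same kind of interval runs from 0.854 to 20.8, which includes equal levels.

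The opposite arms of 3 hairpins were listed among the candidates predicted from the genome, and they add reads for mir-144 in the lactation library alone. The hairpins are shown with both sequenced arms in capitals, as deposited for BTA 4.0.

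mir-144 hairpin: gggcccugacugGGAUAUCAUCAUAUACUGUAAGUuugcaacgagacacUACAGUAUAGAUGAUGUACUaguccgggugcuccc
mir-150 hairpin: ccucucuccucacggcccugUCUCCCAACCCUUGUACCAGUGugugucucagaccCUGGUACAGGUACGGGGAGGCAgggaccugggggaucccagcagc
mir-223 hairpin: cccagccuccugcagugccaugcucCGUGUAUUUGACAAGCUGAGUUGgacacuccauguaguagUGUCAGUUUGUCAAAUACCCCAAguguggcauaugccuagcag

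The 5p arm of mir-144, listed as CN-142-5p, had 4 and 0 reads, so the 3p arm held 3 of 7 reads, or 42.9% (9.90% to 81.6%). Its number in the candidate list has no relation to mir-142. The 3p arm of mir-150, CN-301-3p, had 4 and 8 reads, which left the 5p arm with 97.7% (94.1% to 99.4%) and 96.8% (93.8% to 98.6%) of the reads of both arms. The 5p arm of mir-223, CN-304-5p, had 0 and 4 reads. Unlike mir-142, mir-150 and mir-223 were thus read almost wholly from 1 arm in both libraries.

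A longer form of mir-486-5p and a related form of mir-150-5p were listed among miRNAs conserved with other mammals. PC-486-5p had 11 and 6 reads and shares the seed of mir-486-5p. PC-150-5p had 0 and 3 reads and shares the seed of mir-150-5p.

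PC-486-5p: UCCUGUACUGAGCUGCCCCGAGUU
PC-150-5p: UCUCCCAACCCUUGUACCAGA

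By the most abundant sequence, the share of members that passed the test was near that of the known miRNAs and above that of all 883. Of 7 members, 2 passed Fisher's exact test as higher in the lactation library and 2 as lower, whereas 17.4% of the 883 miRNAs tested passed as higher and 10.9% as lower. Of those 883, 273 had at least 100 summed reads, and among the 283 known miRNAs tested alone 30.0% passed as higher and 22.6% as lower. The counts of members are close to the latter, and they carry no result about the members as a set. With Benjamini-Hochberg adjustment 30.4% and 16.1% of the 883 passed as higher and lower. The shares were 29.3% and 18.3% of the 540 miRNAs with at least 10 summed reads, 42.5% and 32.6% of the 273 with at least 100, and 35.3% and 26.5% of the 283 known miRNAs with all isomiR reads, by which 2 members passed as higher and 4 as lower. At least 2-fold higher were 2 members, mir-451-5p and mir-486-5p, and at least 2-fold lower was 1, mir-223-3p, beside 27.1% and 21.3% of the 188 known miRNAs with at least 100 summed reads. Mir-223-3p, with 91 summed reads, is not itself among the 188. Mir-142-5p fell just short at 1.998-fold lower. With TMM factors mir-142-5p (0.417), mir-142-3p (0.431) and mir-223-3p (0.399) were all at least 2-fold lower, as they were with DESeq2 factors and without scaling, and without scaling mir-451-5p was under 2-fold higher (1.87). Counting all isomiRs, mir-142-3p was the 1 member at least 2-fold lower and no member was 4-fold higher. Mir-144-3p, with 3 reads set for its 0, then joined those at least 2-fold higher without passing the test. By its most abundant sequence mir-486-5p alone was at least 4-fold higher (9.57% of the 188), and no member was 4-fold lower (3.72%). The median log2 ratio of the 4 white cell members was -0.98, that of the 2 erythroid members with a ratio 1.94 and that of the 188 known miRNAs 0.30. With all isomiRs the white cell median was -0.76. These medians are descriptions only. Other scalings shifted every log2 ratio alike, by -0.42 without scaling, by -0.28 with DESeq2 factors, by -0.26 with TMM factors, by -0.10 with raw read totals and by 0.04 with the sum of listed reads, and none changed the direction of a member with a ratio.

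**Figure D2:**
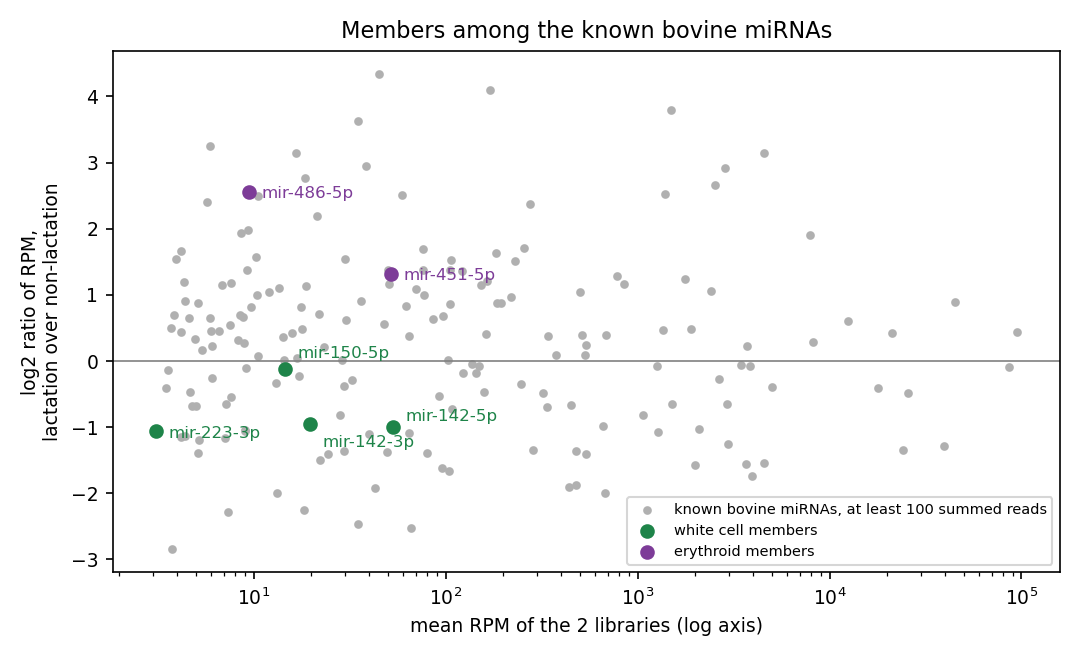
Log2 of the RPM ratio (y axis), against the mean RPM of the 2 libraries (x axis, log scale) for 187 known miRNAs with at least 100 summed reads and reads in both libraries (grey) and for the 6 members with a ratio (green white cell, purple erythroid). The white cell members lie between -1.06 and -0.12 and the erythroid ones at 1.32 and 2.56, all within the cloud of the other miRNAs, and mir-223-3p, with 91 summed reads, is drawn although it has fewer than 100.

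A ratio of reads within a library does not depend on the library total. By this measure, with the most abundant sequence, the groups exchanged their order. The 4 white cell members held 775 and 1853 reads, and the 3 erythroid members 1086 and 519. The exchange rested on mir-451-5p and mir-142. Without mir-451-5p, mir-486-5p (194 and 44) and mir-144-3p (3 and 0) stayed below the white cell reads in both libraries. Without mir-142, mir-150-5p (167 and 242) and mir-223-3p (24 and 67) stayed below the erythroid reads in both. Erythroid members made up 58.4% (56.1% to 60.6%) and 21.9% (20.2% to 23.6%) of the members' reads. The erythroid reads per white cell read were 1.40 and 0.280, a ratio of 5.003 (4.37 to 5.73). With all isomiR reads this ratio was 5.30 (4.85 to 5.78), but the erythroid members then held fewer reads than the white cell ones in both libraries, 0.884 and 0.167 per white cell read. In bulk tissue, more cells of a type cannot be told apart from more RNA per cell.

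Each of the 8 pairs of mir-451-5p or mir-486-5p with a white cell member showed the same direction, and mir-144-3p was left out. That direction is no further result. It follows from the RPM of the members, lower in the lactation library for every white cell member and higher for mir-451-5p and mir-486-5p. Mir-451-5p had 2.10 and 0.421 reads per read of mir-142-5p, a ratio of 4.99 (4.25 to 5.86). The smallest of the 8 ratios was 2.71 (2.15 to 3.42), for mir-451-5p over mir-150-5p, and the greatest 12.3 (6.72 to 22.7), for mir-486-5p over mir-223-3p. With all isomiR reads the 8 ratios ran from 3.72 to 7.57. The pairs share members and are not independent of one another.

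**Figure D3:**
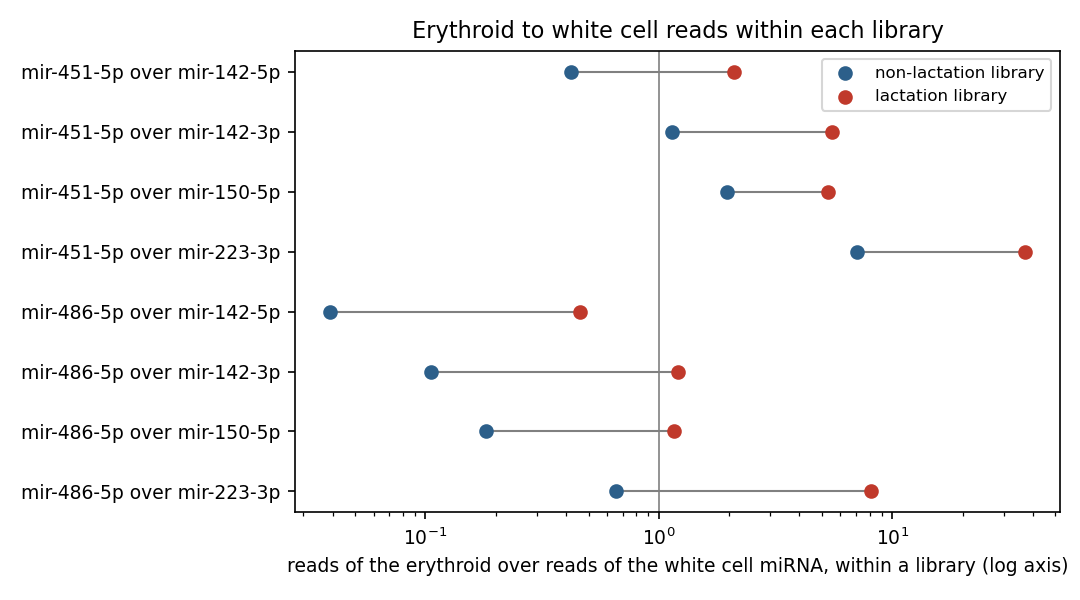
Reads of an erythroid member over reads of a white cell member within the non-lactation (blue) and the lactation library (red), on a log axis, for the 8 pairs on the y axis. In every pair the red point lies to the right of the blue one, and in 4 pairs the line crosses 1. In 3 of these, all with mir-486-5p, the levels of the pair overlapped in 1 of the libraries, and the fourth, mir-451-5p over mir-142-5p, stayed below 1 with all isomiR reads (0.910 and 0.180).

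The order of levels within a library shows where neighbours cannot be separated. In the lactation library mir-451-5p came first and mir-142-5p next, followed by mir-486-5p, mir-150-5p and mir-142-3p, whose intervals overlapped, then by mir-223-3p and mir-144-3p. In the non-lactation library mir-142-5p came first. Mir-451-5p and mir-142-3p followed with overlapping intervals, then mir-150-5p, and then mir-223-3p and mir-486-5p, which overlapped too. Among the 283 known miRNAs, mir-451-5p ranked 90 and 108, mir-142-5p 104 and 85, mir-486-5p 126 and 191 and mir-223-3p 200 and 172. With all isomiR reads, mir-142-5p exceeded mir-451-5p in the lactation library as well (154 against 140 RPM).

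The listed form took a smaller part of the isomiR reads in mir-142-5p than in mir-142-3p. For mir-142-5p the listed form, with the early start, held 23.0% (21.1% to 24.99%) of its 1839 and 26.0% (24.7% to 27.4%) of its 4333 isomiR reads. That of mir-142-3p held 50.5% (44.8% to 56.1%) and 46.6% (43.3% to 50.0%). Mir-223-3p, with 19.7% (13.03% to 27.8%) and 25.5% (20.3% to 31.2%), had about as small a share in its listed form as mir-142-5p. Over 248 known miRNAs with isomiR reads in both libraries the median share was 47.1% and 48.0%.

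The share of mir-451-5p was high in both libraries, at 53.1% (50.7% to 55.5%) and 61.0% (57.4% to 64.4%). Mir-486-5p, by contrast, had 30.0% (26.5% to 33.7%) and 18.4% (13.7% to 23.9%). The intervals of the libraries did not overlap for either of these, in opposite directions, but neither difference passed Fisher's exact test with Bonferroni adjustment over the 248 known miRNAs (adjusted p = 0.072 and 0.11). No member passed, beside 14.5% of the 248 with a higher and 16.5% with a lower share in the lactation library.

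**Figure D4:**
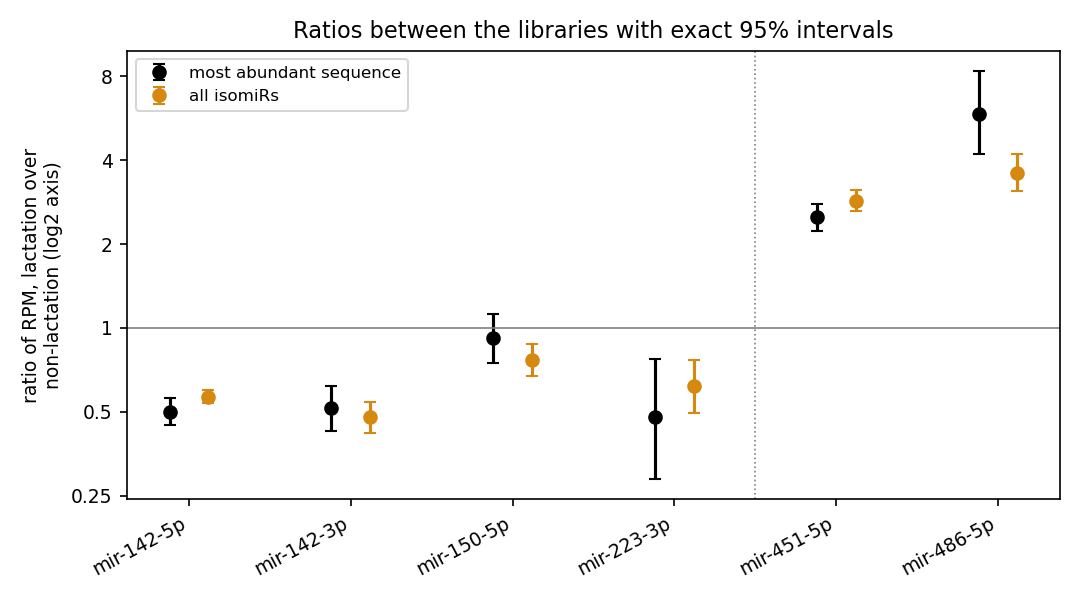
RPM ratio between the libraries (y axis, log2 scale), for the 6 members with a ratio (x axis), from the most abundant sequence (black) and from all isomiRs (orange), with exact 95% intervals. White cell members lie below 1 and erythroid members above 1 with either count, the interval of mir-150-5p reaches past 1 for the most abundant sequence alone, and mir-486-5p falls from 5.88 to 3.61 with all isomiRs.

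The number of isomiR kinds also differed between members of like depth. Since kinds rise with reads, each member was set beside the 20 known miRNAs nearest to it in isomiR reads. Mir-142-5p had 36 and 47 kinds. None of the 20 had more in the lactation library (14 to 34, median 25), and 1 had more in the other. Mir-142-3p had 15 and 19 kinds, and 4 and 2 of its 20 neighbours had more. Mir-223-3p had 8 and 9 kinds, and 5 and 7 of its 20 neighbours had more. Mir-150-5p had 7 kinds in either library, and 16 and 19 of its neighbours had more.

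Mir-451-5p was likewise low in kinds for its depth, with 17 and 8, and 17 and 16 of 20 neighbours had more. Mir-486-5p had 9 and 7 kinds, and 16 and 15 neighbours had more. The erythroid pair and mir-150-5p were thus of fewer forms than most miRNAs of their depth, and mir-142-5p of more, in both libraries. These are descriptions of 2 libraries and were not tested.

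**Figure D5:**
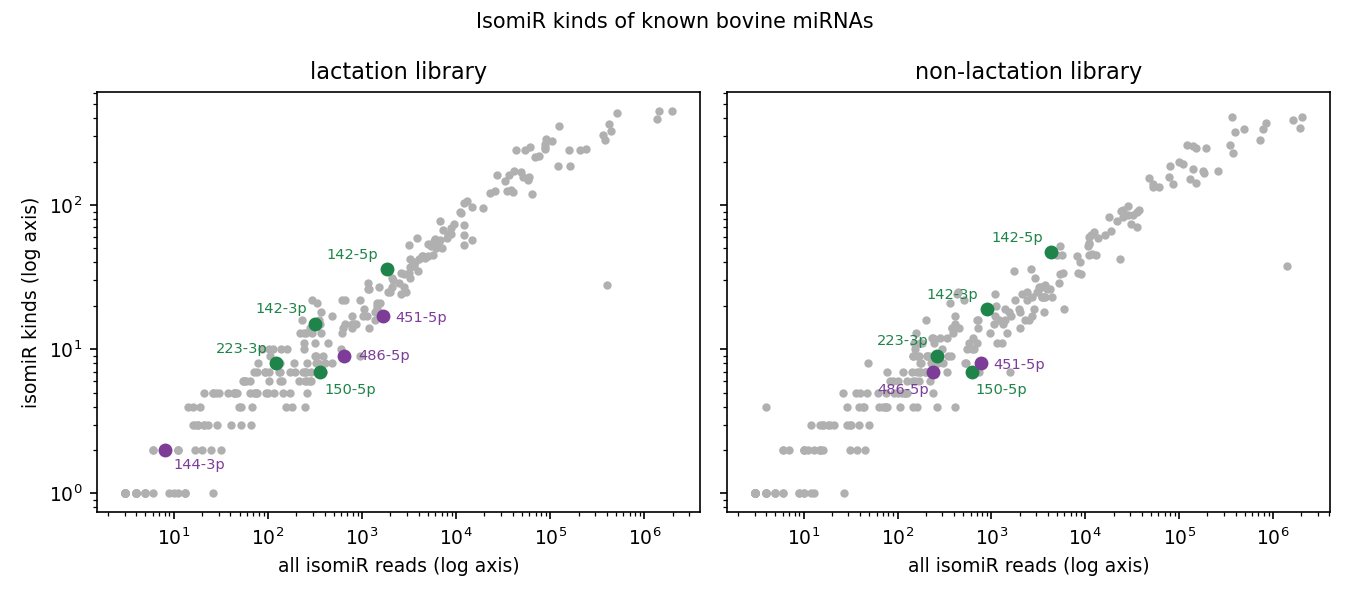
Number of isomiR kinds (y axis) against all isomiR reads (x axis), both on log scales, for the known miRNAs with isomiR reads (grey) and the members (green white cell, purple erythroid) in the lactation library (left) and the non-lactation library (right). Mir-142-5p lies at the upper edge of the cloud in both, and mir-150-5p, mir-451-5p and mir-486-5p lie in its lower part.

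The 4 other white cell miRNAs listed were lower in the lactation library as well. That list was written with earlier results of these data known, so their shared direction is a description only. Beside them, 32.6% of the 273 miRNAs with at least 100 summed reads passed as lower and 42.5% as higher. At high read counts even small differences pass, such as the ratio of 0.951 for mir-92-3p below. All 4 of those listed passed the test as lower: mir-155-5p, induced in activated lymphocytes and macrophages, with 5.85 and 12.1 RPM (ratio 0.484, 0.363 to 0.639), mir-146a-5p, a brake on innate immune signalling, with 3.18 and 7.26 RPM (ratio 0.437, 0.295 to 0.636), mir-342-3p with 206 and 755 RPM (ratio 0.272) and mir-181a-5p, a lymphoid miRNA with wider expression, with 1173 and 1835 RPM (ratio 0.639). MiRNAs abundant in red cells but expressed broadly showed no common direction. Of 5 found, mir-185-5p (ratio 2.07, 1.99 to 2.14) and mir-363-3p (3.24, 2.93 to 3.57) passed as higher, mir-25-3p (0.342) and mir-92-3p (0.951) as lower, and mir-16a-5p did not pass (ratio 1.06, 1.02 to 1.11). Without scaling and with TMM factors mir-16a-5p fell below 1, to 0.797 and 0.886.

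Markers of the tissue's other cells moved between the libraries too, and by more reads than the members. Of all 273 miRNAs with at least 100 summed reads, 42.5% passed as higher and 32.6% as lower. The 5 listed known miRNAs of the epithelial mir-200 family passed as higher in the lactation library, with a summed level of 12201 RPM against 1903. Entries outside that list, looked up after its values were seen, did not all share the direction. Mir-205-5p (ratio 0.266), PC-203-3p (0.265) and PC-429-2-3p (0.373) passed as lower, PC-141-3p (5.63), PC-200a-3p (1.79) and PC-200b-3p (3.34) as higher, and PC-429-1-3p (3.41) did not pass. Both arms of the endothelial mir-126 passed as higher, with a summed level of 487 against 165 RPM and ratios of 3.27 (3.10 to 3.45) for the 5p arm and 2.12 (1.93 to 2.33) for the 3p arm. Of 4 miRNAs of stroma and smooth muscle, mir-199a-3p passed as lower (ratio 0.211), mir-143-3p (2.35) and mir-145-5p (1.17) as higher, and mir-214-3p did not pass. Mir-145-5p fell below 1 without scaling (0.880) and with TMM factors (0.979). The summed level of the 4 was 8608 and 14455 RPM, and no miRNA of these lists was listed at 0. Their part in the ratios of the blood cell miRNAs was not tested.

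With 2 libraries many miRNAs share any given ratio. The known miRNAs with at least 100 summed reads whose ratios were nearest to that of mir-451-5p were mir-200a-3p (2.43), mir-365-3p (2.58) and mir-128-3p (2.58). Those nearest to mir-142-5p were mir-99b-5p (0.506), mir-191-5p (0.488) and mir-142-3p, its own opposite arm.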

How the data were processed

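Mammary small RNA, 1 library per condition, was read on a Genome Analyzer. The authors discarded adaptors, poor reads and matches to other RNA types, and aligned the rest to miRBase 17.0 and the bovine genome BTA 4.0 with ACGT101-miR. The deposited values are raw read counts per miRNA and library. The labels name Trizol and a TruSeq kit, and the paper a miRNeasy and an Illumina small RNA kit.

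RPM used the clean reads that the study gives as totals. A listed 0 was set to 3 reads for the fold only, while intervals and tests took the 0 as listed. Folds were omitted if neither library exceeded 3 reads. With 1 library per condition no dispersion can be fitted, so Fisher's exact test was used, with Bonferroni adjustment and a threshold of 0.05. It covered 883 of the 884 unique miRNAs, those with a listed value, 0 included, in both libraries. All isomiR counts were tested over the 283 known miRNAs, since the isomiR columns of the other tables were not used. Named miRNAs are the members, entries of the same number or pre-miRNA in the other tables, the 3 nearest in ratio to mir-451-5p and mir-142-5p, and lists of markers, of which mir-16b-5p was not found among the entries. Members and lists were picked by name, but with earlier results of these data known, and the muscle list was added after its values were seen. Array target sequences served for comparing starts only. Alternatives were other totals and factors, all isomiRs, other adjustments and minimums, and leaving out members. The methods were tested on simulated counts. Python 3.11.15, scipy 1.17.1, pandas 2.3.3 and matplotlib 3.10.9 were used, with edgeR 4.0.16 and DESeq2 1.42.0 used only to obtain scaling factors.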

Additional observations from a re-analysis of the deposited data

How the results depend on the processing

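No member with a ratio changed direction under any alternative run, and mir-142-5p, mir-142-3p, mir-451-5p and mir-486-5p kept their calls in all of them. Their ratios ranged from 0.375 to 0.566, 0.387 to 0.531, 1.87 to 2.87 and 3.61 to 6.05. In all, 53 of the alternative values kept their side of the threshold and 6 passed it where the reported one did not, 5 of them for mir-223-3p (TMM, DESeq2, no scaling, Benjamini-Hochberg and all isomiRs) and 1 for mir-150-5p (all isomiRs). With all isomiRs 4 members were called lower in place of 2. The ratio of the summed white cell reads was 0.558, and 0.465 with TMM factors, 0.459 with DESeq2 factors, 0.418 without scaling, 0.648 without mir-142-5p and 0.504 without mir-150-5p. That of the summed erythroid reads was 2.79, and 2.33, 2.30 and 2.09 with the same scalings, 5.98 without mir-451-5p and 2.51 without mir-486-5p. The ratio of erythroid to white cell reads was 5.003 and rose to 10.7 without mir-451-5p and fell to 4.31 without mir-142-5p. These shifts follow from the members left out and from the totals used, and no other cause was tested. Depth limits mir-223-3p and mir-144-3p most, with 91 and 3 summed reads. No paired analysis was possible because each condition has 1 library.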
